A study of Oryza sativa Japonica Group with 15 samples.

Results

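The comparison described here asks how the expression difference between the lower and the upper flank of a gravistimulated rice shoot base grew from 0.5 h to 6 h after the plant was turned on its side. It used the 12 flank arrays of a series of 15, chosen by their labels, 3 for each flank at each of the times 0.5 h and 6 h. All plants were seedlings of Oryza sativa, subspecies japonica, aged 21 days, kept in the dark for 16 h and then rotated by 90 degrees, without light per the labels and under dim green light per the methods. The 4 flank groups held 3 biological replicates each, and every array measured RNA from a pool of many cut flanks, so that differences between single plants were averaged within an array. The other 3 arrays measured whole, uncut shoot bases of plants kept upright (0 h). Flanks of plants kept upright for 0.5 h or 6 h were not analysed here. What the turning and the passing of the dark hours each contributed to a change over time within 1 flank therefore cannot be told apart. A comparison of a flank with 0 h also sets a cut flank beside an uncut base, so the cutting cannot be told apart there either.

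In grass shoots, starch-filled plastids settle in the cells around the vascular strands of the base when the organ is turned, and auxin is then moved towards the lower flank. Auxin acts by removing Aux/IAA repressors from auxin response factors, and the genes of these repressors, of the GH3 enzymes that conjugate auxin and of the small auxin-up RNAs (SAUR) are among the first to respond to it. The lower flank then elongates more than the upper, with changes in the cell wall, and the shoot bends upwards.

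For each probe set (a group of short probes for 1 transcript), the signal was put on the log2 scale relative to the median of its array, and the lower and upper flank of the same time and replicate number were taken as a pair. The growth of the flank difference is the mean lower-minus-upper difference of the 3 pairs at 6 h less that of the 3 pairs at 0.5 h. A growth of 1 therefore means that the lower-to-upper ratio was 2-fold larger at 6 h than at 0.5 h. Of 57258 probe sets that are not controls, the 28629 with the higher mean signal were tested, and a probe set was called where its Benjamini-Hochberg adjusted p in limma was under 0.05.

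The labels name the tissue as shoot base. OSH1, a homeobox gene of shoot meristems, was bright in all groups, with group means of 7.21 to 7.44 (log2 above the array median), and so was its relative OSH71, at 6.56 to 6.97. Of 19 matched probe sets of marker genes for meristem, green leaf, root, vascular, dividing and starch-storing cells, 17 were tested and 1 had a called growth, the meristem gene OSH43, at 2.32 (SE 0.13, adjusted p = 0.0021). The root silicon transporter genes LSI1 and LSI2 had group means of 4.23 to 5.10 and 1.56 to 3.53, with growths of -0.01 and 0.38 that were not called. By class, the median growth lay between -0.22 (dividing cells) and 0.18 (root) in the 5 classes with a tested gene. In bulk tissue, fewer cells of a type and less RNA per cell cannot be told apart.

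The flank difference of 297 probe sets changed between 0.5 h and 6 h (1.04% of those tested). It grew in favour of the lower flank for 267 of them (0.933%) and in favour of the upper flank for 30 (0.105%), and 249 changed at least 2-fold (0.87%). Among the 267, growth ranged from 0.75 to 6.29, with a median of 1.38, beside a median of -0.0058 over all probe sets tested. Among the 30 the median was -1.42, with the lowest value at -2.62. All 297 had 3 pair differences at 6 h that did not overlap the 3 at 0.5 h, while 10.8% of all probe sets tested had every 6 h pair above every 0.5 h pair and 7.08% had every one below. An exact permutation test of 3 pairs against 3 cannot give a two-sided p under 0.1, so the calls rest on limma, which takes part of its estimate of spread from all probe sets.

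The number of calls moved with the analysis. Without the pair block, 186 probe sets were called, of which 169 were among the 297. With arrays left uncentred, 103 were called, 78 up and 25 down (75.7% up, against 89.9% with centring), and the median growth of all probe sets shifted by about -0.22. Leaving out 1 pair gave 53 calls without 0.5 h replicate 1, 45 without 0.5 h replicate 2 and 34 without 0.5 h replicate 3, and 91, 40 and 126 without 6 h replicates 1, 2 and 3. The replicate 1 arrays carried more of a spiked labelling control (DapX-5 signal of 106.6 to 209, against 16.5 to 26.3 on the other 10 arrays), so the fit was also run with replicate 1 apart. Within replicates 2 and 3 no probe set passed (lowest adjusted p = 0.153, with 2999 at an unadjusted p under 0.05). The median growth there was 1.39 for the 267 and -1.36 for the 30, and in replicate 1 alone these medians were 1.36 and -1.35. All 297 kept their direction in both subsets. This had to be so, since their pair differences at 6 h do not overlap those at 0.5 h, and it is no support for the calls.

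At 0.5 h the flanks of most of the 267 probe sets with a growing excess in the lower flank were close, as were those of most probe sets tested. Their 0.5 h difference had a median of -0.13, lay within 0.25 of 0 for 185 of them, and was above 0 for 76. Over all 28629 probe sets tested that median was -0.08, with 21815 within 0.25 of 0 and 9582 above 0. A small 0.5 h difference was thus no trait of the 267. A negative 0.5 h value enters the growth with a plus sign, so nothing is read from its sign. At 6 h all 267 had their higher mean in the lower flank, with a median difference of 1.26. The 6 h difference itself was called for 264 of the 267 (2.64% of all tested were called higher in the lower flank) and for 29 of the 30 (1.09% were called lower), while at 0.5 h 1 of the 297 was called (0.00699% of all tested). Of the 267, 114 had 3 pairs below 0 at 0.5 h and 3 pairs above 0 at 6 h, and of the 30, 14 turned from 3 pairs above 0 to 3 pairs below. Over all probe sets tested, 995 turned the first way and 420 the second. With arrays left uncentred, 29 of the 114 and all 14 of the 14 still turned, so the sign of a small 0.5 h difference depended on the centring. These values describe the contrast that chose the probe sets and are not tests of it.

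**Figure D1:**
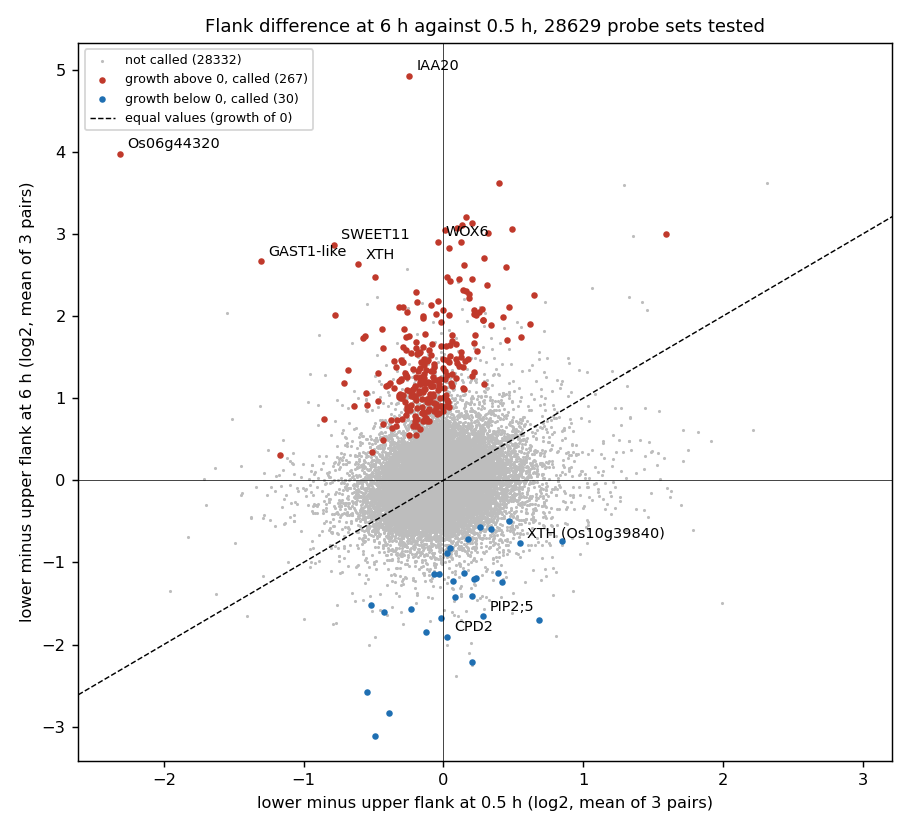
Each point is 1 of the 28629 probe sets tested, with the mean lower-minus-upper difference of 3 pairs at 0.5 h on the x axis and at 6 h on the y axis, both in log2 units, and the dashed line marks equal differences. The 267 red points (growth above 0) lie near 0 on the x axis and above 0 on the y axis, while Os06g44320 and the GAST1-like gene start furthest below 0 among the labelled genes.

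A larger lower-to-upper ratio can arise from a rise in the lower flank, a fall in the upper flank, or both. The growth equals the lower flank's change over these hours less the upper flank's, so these parts describe the called genes and do not test them again. Among the 267, the lower flank had a median change of 0.60 and the upper flank of -0.83. In 148 the mean rose in the lower flank and fell in the upper, in 75 it fell in both, and in 44 it rose in both. Over all 28629 probe sets, opposite movement of this kind was found in 2700, a fall in both flanks in 12509 and a rise in both in 10877. With uncentred arrays the 3 counts among the 267 were 128, 104 and 35, where the median probe set itself changed by -0.35 (lower flank) and -0.15 (upper flank). With quantile normalization they were 146, 74 and 47.

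In the fit of each flank's change, 47 of the 267 were called both higher in the lower flank and lower in the upper flank, 70 were called higher in the lower flank alone, 94 were called lower in the upper flank alone, 22 were called higher in both, 28 lower in both, and 6 in neither. The share of all probe sets called was 11.5% for a rise in the lower flank and 19.7% for a fall in the upper flank. Over all 28629 tested, only 50 were called higher in the lower flank and lower in the upper. Another 554 were called higher in the lower flank alone and 2168 lower in the upper flank alone. In both flanks 2675 were called higher and 3425 lower, shares near those of the 22 and the 28. Neither flank was called for 17638. Against the upright 0 h shoot bases, 138 of the 267 were called higher in the 6 h lower flank (6.25% of all tested) and 141 were called lower in the 6 h upper flank (15.4%). Another 19 were called higher than 0 h in the 6 h upper flank (8.09%). For 155 the 0 h mean lay between the flank means of 6 h, with the lower flank above it, as for 1832 of all 28629 tested.

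**Figure D2:**
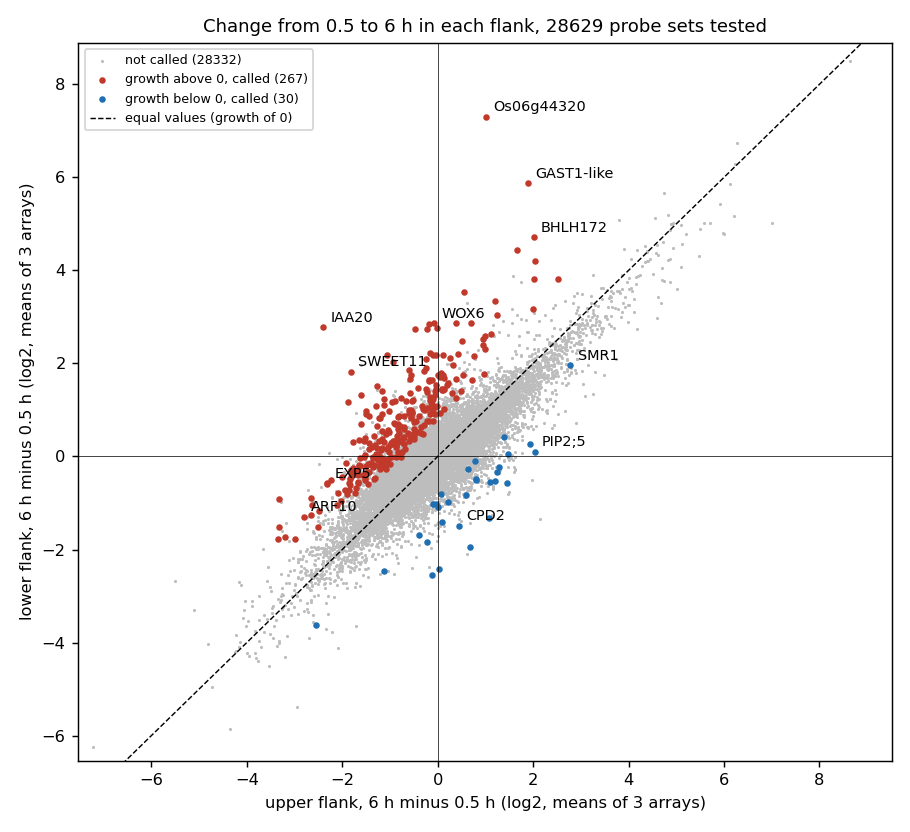
Each point is 1 of the 28629 probe sets tested, with the change from 0.5 h to 6 h in the upper flank on the x axis and in the lower flank on the y axis, both in log2 units from means of 3 arrays, and the dashed line marks equal changes. WOX6 lies on the vertical axis, with a rise in the lower flank alone, EXP5 and ARF10 lie where both flanks fell, and PIP2;5 lies on the horizontal axis to the right, with a rise in the upper flank alone.

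The genes described next are the 15 largest rises and all 7 falls with a symbol or a described function, the called members of gene lists and the called genes that the study discusses, 46 in all, with Os06g44320 added after its values were seen. Each gene is given by 1 probe set, the brightest that names it alone, so that the dimmer and larger of the 2 called probe sets of Os10g40480 (growth 2.98) is not among the 15. Most of the loci owe their description to the study's own tables, which were chosen on these same arrays for a difference between flanks, so the number of described genes among the rises is no independent evidence. Of the 47, 32 were also called without the pair block and 8 stayed called with each of the 6 pairs left out in turn. Those 8 were Os06g44320, the GAST1-like gene Os09g24840, SWEET11, WOX6, the peroxidase gene Os11g10460, the alpha-xylosidase gene Os01g03950, the 1-aminocyclopropane-1-carboxylate (ACC) oxidase gene Os09g27750 and PIN1b. The other 39 lost the call without at least 1 pair, and 22 were called in none of the 6 fits with a pair left out. No growth changed direction under any of the 17 alternatives. Only the fits without centring, with quantile normalization and with an offset added to each signal could have reversed one. The pairs of these genes do not overlap, so leaving out pairs could not, and the other fits left the estimates unchanged.

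IAA20 (Os06g07040, chromosome 6), an Aux/IAA repressor gene, had the largest growth of the auxin genes. Its signal in replicates 1, 2 and 3 was 0.81, 0.21 and 0.87 in the 0.5 h upper flank and 0.66, -0.01 and 0.50 in the 0.5 h lower flank. By 6 h it was -1.77, -2.91 and -0.63 in the upper flank and 3.11, 3.58 and 2.80 in the lower flank. The 0.5 h groups overlapped, while at 6 h the flanks stood apart on both sides of all earlier values, with the 0 h bases at 0.31, 0.13 and -0.14. The growth was 5.17 (SE 0.70), with an adjusted p of 0.0307. The 6 h upper-flank signals were below the array median, and with an offset of 16 added to each signal the growth was 3.24. With a term for replicate 1 its adjusted p was 0.0699. The annotation gives the symbol IAA20 to a second gene as well, on chromosome 1 and also listed as IAA4, whose growth of 1.19 was not called (adjusted p = 0.0729), with changes of -1.56 (lower flank) and -2.75 (upper flank).

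The Aux/IAA list held 25 tested genes of 26 on the array. 7 of them had a called rise and none a called fall, beside 0.933% and 0.105% of all probe sets tested. The list's median growth was 0.62, with 21 of 25 above 0 (49.1% of all probe sets tested were above 0). This list, like the others, was chosen with earlier results of these data known. Besides IAA20, the called members were IAA9 at 2.77, IAA14 at 1.64, IAA12 at 1.55, IAA1 (also listed as IAA13, on chromosome 3) at 1.40, IAA10 at 0.93 and IAA15 at 0.76. A different gene that carries the symbol IAA1 rose in both flanks, with a growth of 0.41 that was not called (adjusted p = 0.344). Without the pair block IAA14 and IAA15 were not called (adjusted p = 0.199 and 0.155). With 1 pair left out the called number fell to between 0 (without 0.5 h replicate 3) and 2. With uncentred arrays the list's median, relative to that of all probe sets, was 0.63. It was 0.41 over the 19 members among the brightest 14314 probe sets and 0.42 with an offset of 16 added to each signal. In both of these fits, and with a random block or a variance trend, 1 member was called as a fall, beside 6 to 12 called rises.

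The members reached their flank difference by different routes. IAA9 rose in both flanks, by 4.44 in the lower and by 1.67 in the upper, and its pair differences went from 0.04, 0.62 and -0.28 at 0.5 h to 2.50, 3.07 and 3.14 at 6 h. IAA12 rose by 0.99 in the lower flank and fell by 0.56 in the upper, and IAA1 behaved alike, with 0.84 and -0.56. IAA15, one of the brightest of the family, changed by -0.01 in the lower flank and by -0.77 in the upper. OsIAA11 (Os03g43400), singled out after its values were seen because no symbol placed it in the list, had pair differences of 0.04, 0.16 and -0.06 at 0.5 h and of 2.48, 2.63 and 2.16 at 6 h, a growth of 2.38 (SE 0.16). At the other end IAA18 had a growth of -1.29 that was not called (adjusted p = 0.0763).

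Among the auxin carriers, the gene described as the efflux carrier PIN1b (Os01g51780) had signals of 3.25, 2.86 and 3.17 in the 0.5 h upper flank and 3.54, 3.35 and 3.27 in the 0.5 h lower flank. By 6 h they were 1.63, 1.97 and 1.19 in the upper flank and 4.26, 4.50 and 4.17 in the lower flank. All 3 lower-flank values of 6 h exceeded every other array, and all 3 upper-flank values lay below every other array. The growth was 2.42 (SE 0.18, adjusted p = 0.0059), made of a change of 0.92 (lower flank) and -1.50 (upper flank). PIN10a (OsPIN3a), another efflux carrier gene, grew by 1.13 (SE 0.15, adjusted p = 0.0305) and was not called without the pair block (adjusted p = 0.0689). The list of carriers with symbols held 5 tested genes with a median growth of -0.15, 1 of them called, and PIN1b was not among them because the annotation gives its probe set no symbol. The genes described as auxin transporter-like 3 (Os10g05690) and 4 (Os11g06820), influx carrier relatives singled out after their values were seen, grew by 1.73 and 0.89, and the upper-flank signal of the first fell by 2.31.

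Of 9 tested GH3 genes, 1 was called. It was GH3-2, whose product joins auxin to amino acids. Its pair differences were 0.29, 0.33 and -0.08 at 0.5 h and 2.48, 2.22 and 2.11 at 6 h, and its growth was 2.09 (SE 0.18, adjusted p = 0.0086). Of 16 tested auxin response factor genes 1 was called, ARF10 (Os04g43910), at 1.51 (SE 0.18, adjusted p = 0.0194). ARF10 fell in both flanks, by 1.30 in the lower and by 2.81 in the upper, and was not called without the pair block (adjusted p = 0.071). A different gene that carries the same symbol ARF10 had a growth of 0.27 that was not called (adjusted p = 0.583). The median growth was 0.20 over the GH3 list and 0.22 over the auxin response factors. SAUR genes have too few symbols to count as a list. A probe set shared by the locus Os09g37446 and the SAUR49 locus Os09g37440, picked after its values were seen, already had pair differences of 1.47, 1.49 and 1.81 at 0.5 h, and these reached 2.96, 3.04 and 2.98 at 6 h. It was the 1 of the 297 that was already called at 0.5 h (adjusted p = 0.0339).

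**Figure D3:**
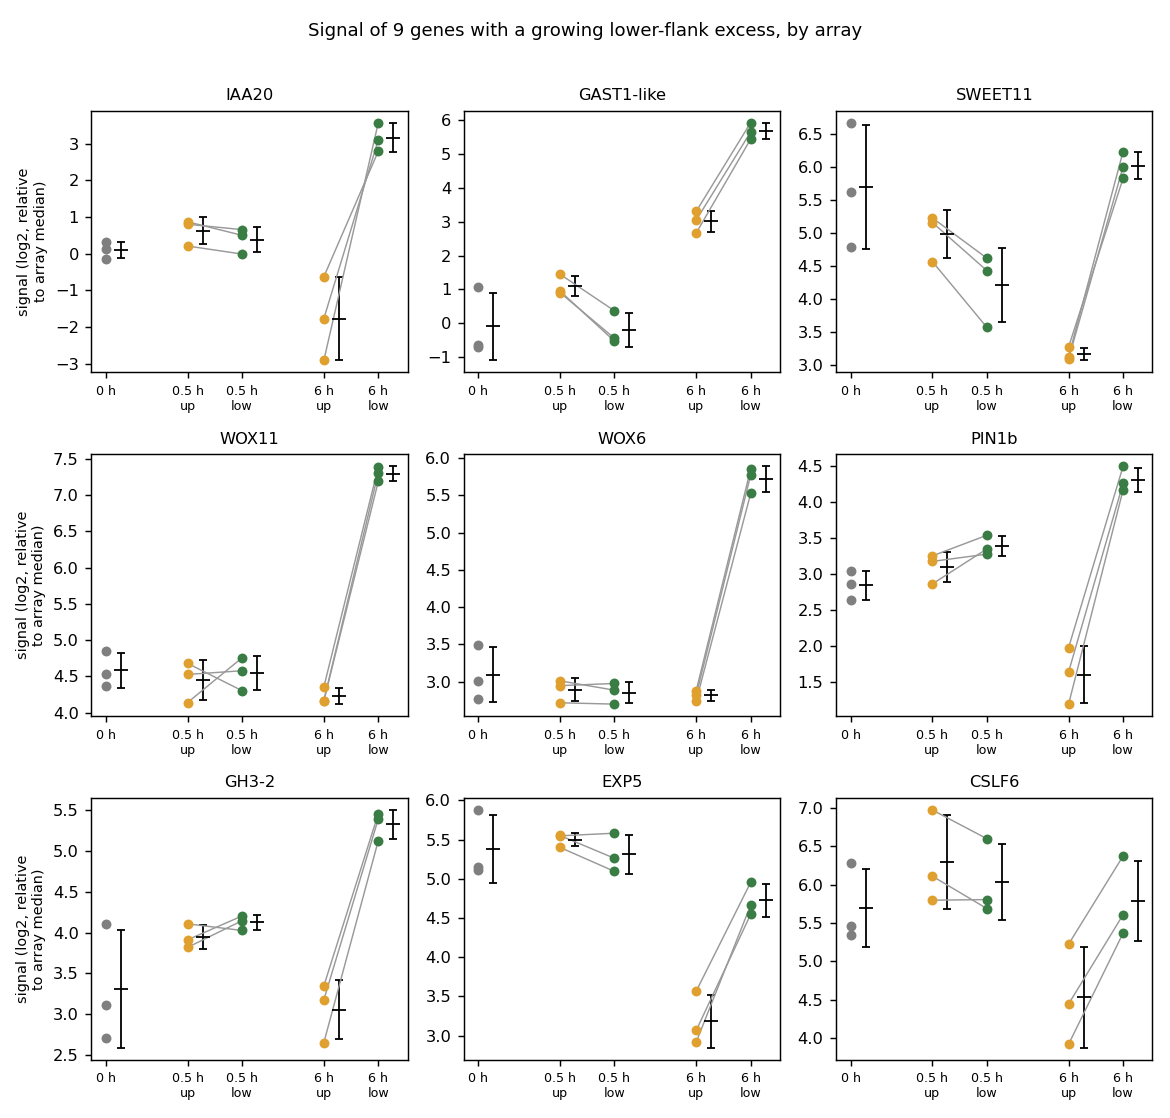
Each panel shows 1 gene, with the log2 signal relative to the array median on the y axis and the 5 groups on the x axis. Points are single arrays, grey lines join the flanks of a pair, and bars give the mean and SD of 3 arrays. WOX6 and WOX11 left their earlier level in the 6 h lower flank alone, while EXP5 and CSLF6 fell in the 6 h upper flank.

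Genes of other growth hormones were called as well. Os09g24840, described as a GAST1 protein precursor, belongs to a family of small secreted proteins known for their induction by gibberellin. Its signal was 0.95, 0.91 and 1.45 in the 0.5 h upper flank and -0.53, -0.44 and 0.37 in the 0.5 h lower flank, so that the lower flank was the lower one in all 3 pairs. At 6 h the order had turned, with 3.05, 3.30 and 2.67 in the upper flank and 5.65, 5.93 and 5.44 in the lower flank. Both flanks rose, by 1.90 and by 5.87, and the growth was 3.97 (SE 0.15, adjusted p = 0.0021). Its pair differences spread little, from -1.48 to -1.08 at 0.5 h and from 2.60 to 2.78 at 6 h. The gene of a gibberellin 2-beta-dioxygenase (Os04g44150), a type of enzyme that inactivates gibberellins, was singled out after its values were seen and grew by 2.12 (SE 0.18, adjusted p = 0.0086).

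Ethylene is made by ACC oxidase in its last step. The ACC oxidase gene Os09g27750 was at 5.48 to 5.77 in all 6 flank arrays of 0.5 h, then at 5.24, 5.05 and 4.63 in the 6 h upper flank and at 7.47, 7.51 and 7.38 in the 6 h lower flank. Its growth was 2.46 (SE 0.17, adjusted p = 0.0046). ACO1 (Os09g27820), a neighbouring gene of the same family, grew by 1.44 (SE 0.16, adjusted p = 0.0179) and missed the threshold without the pair block (adjusted p = 0.0531). Probe sets of such close relatives can bind each other's transcripts, and this was not tested. The list of ethylene genes with symbols held 15 tested genes, of which ACO1 was the only one called, and their median growth was 0.05. Os09g27750 was not in that list, because the annotation gives its probe set no symbol. The ACC oxidase gene Os08g30080, outside the list and singled out after its values were seen, grew by 1.80 while its mean fell by 1.51 in the lower flank and by 3.32 in the upper.

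The brassinosteroid list held 18 tested genes, of which 2 rose and 1 fell, beside 0.933% and 0.105% of all probe sets tested. A growth above 0 was found for 15 of the 18, with a list median of 0.22. BU1 (BHLH172, Os06g12210), a helix-loop-helix gene of brassinosteroid signalling in rice, had signals of 2.54, 1.74 and 2.80 in the 0.5 h upper flank, 2.79, 2.98 and 2.25 in the 0.5 h lower flank, 4.39, 4.44 and 4.30 in the 6 h upper flank and 7.57, 7.33 and 7.25 in the 6 h lower flank. The 0.5 h pairs disagreed in sign, at 0.26, 1.24 and -0.55, and the growth of 2.69 (SE 0.43) only just passed, with an adjusted p of 0.0499. It was not called with quantile normalization (adjusted p = 0.063) or with a term for replicate 1 (adjusted p = 0.0994). CYP734A6, a cytochrome P450 of brassinosteroid inactivation, turned from pair differences of -0.39, -0.21 and -0.51 to 0.67, 0.72 and 0.54, a growth of 1.01 (SE 0.14, adjusted p = 0.0321). With uncentred arrays the 0.5 h pairs of CYP734A6 were of both signs, at -0.30, 0.03 and -0.19. The member that fell was CPD2, a cytochrome P450 gene of brassinosteroid synthesis, described with the falls below. With 1 pair left out, the called rises in the list numbered 0 or 1, with quantile normalization 0, and CPD2 lost its call whenever one of the 0.5 h pairs was left out.

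Of the called probe sets, 23 rises and 1 fall carry the cell wall category, a number with no background to be read against, since the tables that give it list only genes picked on these arrays. The largest growth there was that of Os04g51460, described as a xyloglucan endotransglucosylase/hydrolase (XTH), an enzyme that cuts and rejoins xyloglucan. Its signals were 2.52, 3.33 and 2.57 in the 0.5 h upper flank, 2.31, 2.10 and 2.18 in the 0.5 h lower flank, 1.90, 1.88 and 1.46 in the 6 h upper flank and 4.18, 4.66 and 4.29 in the 6 h lower flank. The lower flank was below the upper in every 0.5 h pair and above it in every 6 h pair, and the growth was 3.24 (SE 0.30, adjusted p = 0.0107). The alpha-xylosidase gene Os01g03950, whose kind of enzyme trims xyloglucan, had pair differences of -0.04, 0.03 and 0.13 at 0.5 h and 2.87, 2.66 and 2.95 at 6 h, a growth of 2.79 (SE 0.14, adjusted p = 0.0021).

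Expansins loosen the wall without cutting it. Of 10 tested alpha-expansin genes EXP5 was called and of 9 tested beta-expansin genes EXPB11 was called, and the list medians were 0.30 and 0.35. EXP5 stood at 5.55, 5.55 and 5.40 in the 0.5 h upper flank, 5.26, 5.58 and 5.10 in the 0.5 h lower flank, 3.57, 3.07 and 2.92 in the 6 h upper flank and 4.96, 4.55 and 4.67 in the 6 h lower flank. Every 6 h value was below every 0.5 h value, and the fall was 2.32 in the upper flank against 0.59 in the lower. The growth of EXP5 was 1.73 (SE 0.17, adjusted p = 0.0111). EXPB11 changed by -0.03 in the lower flank and by -1.36 in the upper, a growth of 1.33 (SE 0.17, adjusted p = 0.0275). EXP1 had a growth of -1.10 that was not called (adjusted p = 0.0774).

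Several genes for the wall's glucans and their sugar donors fell in the upper flank, while their change in the lower flank was not called. CSLF6, which makes the mixed-linkage glucan of grass walls, had pair differences of -0.38, -0.42 and 0.01 at 0.5 h and 1.15, 1.16 and 1.45 at 6 h, with changes of -0.25 (lower flank) and -1.76 (upper flank). Its arrays of replicate 1 were the brightest in each group, and without the pair block the adjusted p rose from 0.0192 to 0.592. CSLC7 and CSLC1, of the family that makes the xyloglucan backbone, grew by 0.93 and 1.21. In CSLC1 it was the lower flank that moved, by 1.08 against -0.14, and in CSLC7 the upper, by -1.20 against -0.27. Of 15 tested cellulose-synthase-like genes these 3 were called, all as rises, beside 0.933% of all probe sets tested. Without the pair block 1 was called and with a pair left out none, and the list median was 0.25. UGE-2, which interconverts UDP-glucose and UDP-galactose, grew by 1.28 (SE 0.14, adjusted p = 0.017), the only one called of 12 tested genes of UDP-sugar synthesis. None of 9 cellulose synthase genes was called by limma, although 4 had an unadjusted p under 0.05 for a rise, 8 had a growth above 0 and their median was 0.21. For CESA6 the growth was 0.72 (adjusted p = 0.0588). By category, pectin-degrading genes were also present, and a pectate lyase gene (Os04g05050), chosen after its values were seen, was called on 3 probe sets, at 2.01, 1.88 and 1.24, again with the larger movement in the upper flank.

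Among the homeobox genes, a pair changed in the lower flank while the change in the upper flank was not called. WOX6 (Os03g20910) and WOX11 (Os07g48560) are WUSCHEL-related transcription factor genes, and WOX11 is known in rice for crown root growth. WOX6 was at 2.72, 3.01 and 2.95 in the 0.5 h upper flank, at 2.70, 2.89 and 2.98 in the 0.5 h lower flank and at 2.88, 2.82 and 2.75 in the 6 h upper flank, but at 5.86, 5.78 and 5.53 in the 6 h lower flank. The first 9 values overlapped and the last 3 stood well above them. The growth was 2.94 (SE 0.13, adjusted p = 0.0021), with a change of -0.08 in the upper flank. WOX11 was at 4.53, 4.14 and 4.68, then 4.58, 4.76 and 4.30, then 4.36, 4.17 and 4.16 in the same 3 groups, and at 7.39, 7.31 and 7.19 in the 6 h lower flank. Its growth was 2.97 (SE 0.25, adjusted p = 0.0086).

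Within the list of WOX and HD-Zip genes 4 of 20 tested genes rose and none fell, beside 0.933% and 0.105% of all probe sets tested. The list's median growth was 0.08. With uncentred arrays that median was -0.14, beside the shift of -0.22 over all probe sets, and it was -0.06 without 6 h replicate 3 and -0.0087 with an offset of 16. Of the 4, 2 were HD-Zip genes. HOX2 had pair differences of -0.14, -0.35 and -0.38 at 0.5 h and 1.22, 1.59 and 1.51 at 6 h, and fell by 1.43 in the upper flank. HOX24, near the array median at 0.5 h, rose in the lower flank by 1.68 and grew by 1.56 (SE 0.23, adjusted p = 0.0366). With 1 pair left out, between 1 (without 6 h replicate 2) and 3 of these genes were called. OSH43, of the KNOX class of homeobox genes, was at -0.60, -0.64 and -0.44 in its 0.5 h pairs and at 1.79, 1.75 and 1.72 at 6 h, while OSH1, OSH6 and OSH71 of the same class had growths of -0.03, 0.09 and -0.07 that were not called.

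Os10g26410 and Os02g51320 are classed in the study's tables as helix-loop-helix (bHLH) transcription factor genes, and they grew by 3.22 (SE 0.39, adjusted p = 0.0227) and by 2.48 (SE 0.30, adjusted p = 0.0209). Os10g26410 rose by 2.73 in the lower flank, and its 0.5 h pairs were uneven at 0.04, 1.15 and 0.01. In Os02g51320 the lower flank rose by 2.86, with pair differences of 0.46, 0.30 and -0.33 at 0.5 h and 2.35, 2.40 and 3.13 at 6 h. Of 10 tested bHLH genes with symbols only BU1 was called, and 9 had a growth above 0, with a median of 0.52.

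Os06g44320, described as an expressed protein of unclassified regulation, had the largest growth of all. Its signal was -0.96, -0.27 and 0.29 in the 0.5 h upper flank and -3.04, -2.16 and -2.67 in the 0.5 h lower flank. By 6 h it was 0.78, 0.69 and 0.64 in the upper flank and 4.35, 5.04 and 4.66 in the lower flank. The lower flank thus went from the dimmest group, below the 0 h bases at -0.88, -1.30 and -0.09, to the brightest. The growth was 6.29 (SE 0.33, adjusted p = 0.0021), and 4.29 with an offset of 16 added to each signal.

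Calcium sensors and their kinases were called in small numbers. Os09g30506, described as an EF hand protein and so a likely calcium binder, rose by 2.86 in the lower flank and changed by -0.18 in the upper. Its growth was 3.03 (SE 0.29, adjusted p = 0.0111), and 0.112 was its adjusted p without the pair block. CML27, a calmodulin-like gene, grew by 1.34 (SE 0.21, adjusted p = 0.0459), the only one called of 24 tested calmodulin and calmodulin-like genes. Of 27 tested CBL sensor and CIPK kinase genes, CIPK3 (Os03g20380, also listed as CIPK31 and CK1) and CIPK6 (Os08g34240) were called, at 1.54 and 0.84. CIPK6 fell in the upper flank, and its change of -0.16 in the lower flank was not called. The list medians were 0.11 for the calmodulins and 0.03 for the CBL and CIPK genes. CML27 was not called without the pair block (adjusted p = 0.0598).

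In the list of sugar transporters 1 gene was called. SWEET11 (Os8N3, Os08g42350), which encodes a sucrose exporter of the plasma membrane, had signals of 4.57, 5.23 and 5.16 in the 0.5 h upper flank and 3.57, 4.62 and 4.43 in the 0.5 h lower flank. By 6 h these were 3.27, 3.13 and 3.09 in the upper flank and 5.83, 6.24 and 6.01 in the lower flank. The order of the flanks turned in every pair, and the growth was 3.65 (SE 0.19, adjusted p = 0.0021), a 12.5-fold larger ratio. At 0 h it was at 4.79, 5.63 and 6.68, a range that covers the 6 h lower flank. SWEET11 fell by 1.82 in the upper flank and rose by 1.82 in the lower. It was the only one called of 12 tested sugar transporter genes, whose median was -0.08. In limma, 4 of the 12, SWEET11 included, had an unadjusted p under 0.05 for a rise and 1 for a fall. None of 11 invertase and sucrose synthase genes was called by limma, though for 2 the unadjusted p was under 0.05.

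The peroxidase gene Os11g10460 also turned, from pair differences of -0.76, -0.84 and -0.72 at 0.5 h to 2.09, 2.13 and 1.82 at 6 h, with a growth of 2.79 (SE 0.14, adjusted p = 0.0021) and a change of -0.02 in the upper flank. Peroxidases act in wall cross-linking and in the turnover of hydrogen peroxide. None of 9 tested peroxidase genes with symbols was called by limma, though for 1 the unadjusted p was under 0.05. That gene was PRX74, with a growth of 1.73 (adjusted p = 0.11). Apart from PRX74 and PRX112, the list held only genes with APX symbols, for ascorbate peroxidases. It therefore says little about genes described like Os11g10460. Of the called probe sets, 4 rises and no fall carry the peroxidase category, again without a background to be read against. Os02g30780, described as LGC1 and named by the study, rose in both flanks, by 3.81 in the lower and by 2.01 in the upper, a growth of 1.80 (SE 0.15, adjusted p = 0.0086). A probe set shared by Os04g57310 and Os04g57320, the second described as an immutans protein, an oxidase of plastids, grew by 1.34 (SE 0.13, adjusted p = 0.0107). Another, shared by the CTP synthase locus Os05g49770 and the isocitrate dehydrogenase locus Os05g49760, grew by 1.01 (SE 0.14, adjusted p = 0.0321), with an adjusted p of 0.0769 without the pair block. Which of the 2 loci gave the signal cannot be told apart on either probe set.

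**Figure D4:**
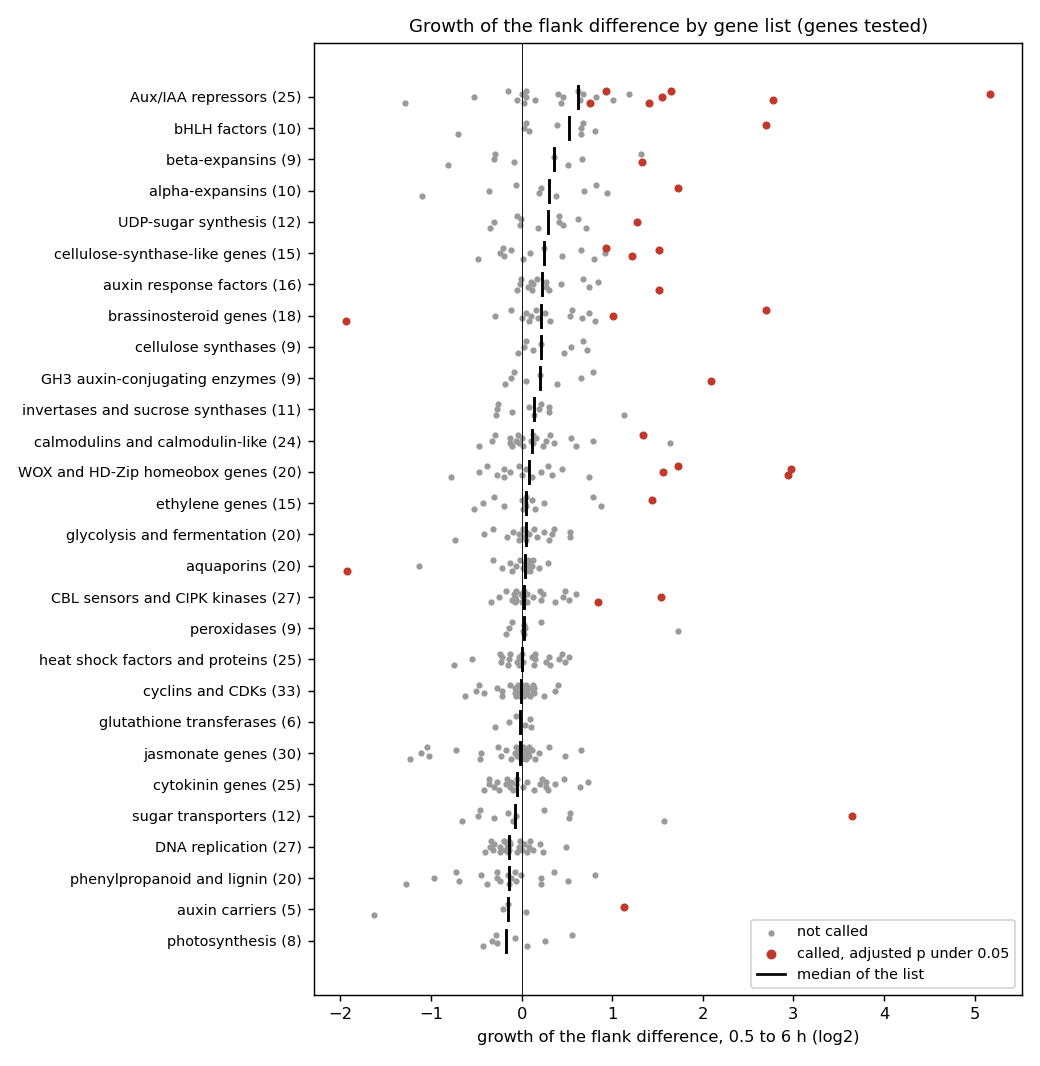
Each row is 1 of the 28 gene lists with at least 5 tested genes, with the number tested in parentheses, and each point is 1 gene at its growth of the flank difference on the x axis, in log2 units. Red points were called, black bars are list medians, and the Aux/IAA list has both the highest median, 0.62, and the most called genes, 7.

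Several lists held no called gene, among them the cellulose synthases, the invertases and sucrose synthases and the peroxidases given above. The others were the cytokinin genes (25 tested, median growth -0.05), jasmonate genes (30, -0.02), cyclins and cyclin-dependent kinases (33, -0.01), DNA replication genes (27, -0.14), heat shock genes (25, -0.0014, of the other sign relative to all probe sets with uncentred arrays), glycolysis and fermentation genes (20, 0.04), photosynthesis genes (8, -0.17), phenylpropanoid and lignin genes (20, -0.14) and glutathione transferases (6, -0.02). In the phenylpropanoid list, 4 genes had an unadjusted p under 0.05 for a fall and 3 for a rise, and in the jasmonate list 4 and 1. The other lists given here with a median held 0 to 3 such genes each, and no list with 0 calls in limma is shown to be unchanged. Of all probe sets tested, 3416 had an unadjusted p under 0.05.

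The falls, in which the upper flank gained on the lower, numbered 30 probe sets, of which 8 have a symbol or an entry in the study's tables. Their median change was -0.82 (lower flank) and 0.65 (upper flank). Of the 30, 15 were called below 0 h in the 6 h lower flank (14.4% of all tested) and 12 above 0 h in the 6 h upper flank (8.09%). CPD2 (chromosome 12) had the largest fall of the named genes. It was at 4.50, 4.79 and 4.59 in the 0.5 h upper flank, 4.44, 4.70 and 4.83 in the 0.5 h lower flank, 5.16, 5.15 and 4.92 in the 6 h upper flank and 3.002, 3.44 and 3.06 in the 6 h lower flank. The 0.5 h groups overlapped and the 6 h lower flank lay below every other array, the 0 h bases included. The growth was -1.93 (SE 0.17, adjusted p = 0.0090), with changes of -1.49 (lower flank) and 0.45 (upper flank). CPD2 has a close relative, CPD1, and whether the probe set also binds its transcripts was not tested.

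PIP2;5 (chromosome 7), a water channel gene of the plasma membrane, fell by the same amount through the other flank. It was at 5.63, 5.50 and 5.57 in the 0.5 h upper flank, 5.69, 6.00 and 5.84 in the 0.5 h lower flank, 7.65, 7.62 and 7.51 in the 6 h upper flank and 5.89, 6.15 and 5.79 in the 6 h lower flank. The upper flank of 6 h was above all other arrays, and the lower flank overlapped its own values of 0.5 h. The growth was -1.93 (SE 0.17, adjusted p = 0.0089), with changes of 0.10 (lower flank) and 2.03 (upper flank). It was the only one called of 20 tested aquaporin genes, whose median growth was 0.04, and it lost the call without 0.5 h replicate 3 (adjusted p = 0.0573).

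The other named falls were smaller and less stable. Os10g39840, a second XTH gene, had pair differences of 0.40, 0.52 and 0.73 at 0.5 h and -0.88, -0.95 and -0.48 at 6 h, opposite in sign to the XTH gene Os04g51460 at both times, and a growth of -1.32 (SE 0.18, adjusted p = 0.0302). HAK17, a potassium transporter gene, fell in both flanks, by 2.45 in the lower and by 1.12 in the upper, with a growth of -1.33 (SE 0.20, adjusted p = 0.0403) that was -0.67 and not called with an offset of 16. PORA, a protochlorophyllide reductase gene of the chlorophyll pathway, had a growth of -1.29 (SE 0.15, adjusted p = 0.0203). ABCG50, an ABC transporter gene, had a growth of -0.88 (SE 0.14, adjusted p = 0.0494), and SMR1 one of -0.82 (SE 0.13, adjusted p = 0.0459) while its signal rose in both flanks, by 1.96 in the lower and by 2.78 in the upper. Without the pair block, the adjusted p of these 5 genes lay between 0.112 (Os10g39840) and 0.589 (HAK17), and none was called.

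**Figure D5:**
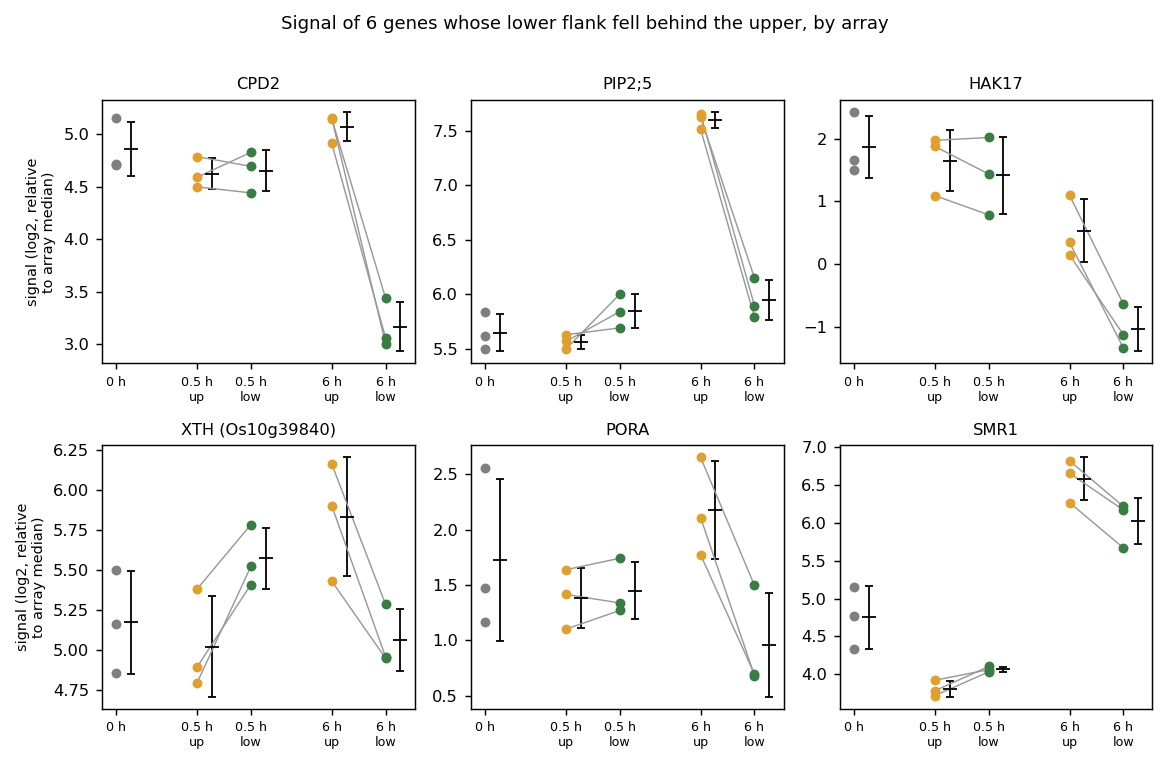
Each panel shows 1 gene, with the log2 signal relative to the array median on the y axis and the 5 groups on the x axis. Points are single arrays, grey lines join the flanks of a pair, and bars give the mean and SD of 3 arrays. CPD2 dropped in the 6 h lower flank, PIP2;5 rose in the 6 h upper flank, and SMR1 rose in both flanks of 6 h.

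Of the genes that the study discusses, 34 were matched to a tested probe set, and 9 had a called growth, 8 of them a rise. Their median growth was 0.53, but they were discussed for flank differences on these arrays. Among those not called, a gibberellin 20-oxidase gene (Os05g34854), for a late step of gibberellin synthesis, had a growth of 1.47 (adjusted p = 0.0729), and the SAUR55 gene (Os09g37500) one of 1.27 (adjusted p = 0.0567), with a flank difference of 1.07 at 0.5 h and of 2.34 at 6 h. The invertase gene Os02g33110 had a growth of 1.13 (adjusted p = 0.0762). The amylase gene AMYC2 had one of -1.69 (adjusted p = 0.0973), and AMY3D one of -0.75 (adjusted p = 0.365). The pyruvate decarboxylase gene Os05g39310, of fermentation, was higher in the lower flank by 0.90 at 0.5 h and by 1.43 at 6 h, a growth of 0.53 (adjusted p = 0.747).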

How the data were processed

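Signal intensities per probe set were deposited by the authors for 15 Affymetrix rice genome arrays, computed with GCOS after their methods and with MAS5 per the submitters' processing notes. The sources used here do not give the scaling target, and array medians ranged from 17.2 to 29.6. RNA went through repeated rounds of amplification, which can distort weak signals. Arrays have no read depth, and their number limits the precision. Detection calls were not used here. Intensities were taken to log2 and centred per array, 123 control probe sets were left out, and the 50% with the highest mean over the 15 arrays were kept. The contrast was fitted with limma 3.58.1 in R 4.3.3 over the 12 flank arrays, each pair of flanks being a block, with 4 residual degrees of freedom and two-sided moderated tests. Same-numbered flanks deviated together from their group means (correlations of 0.224 to 0.499 for the 6 pairs), and the pairing comes from this and from the replicate numbers, since the labels name no shared plants. Changes within a flank and comparisons with 0 h were fitted without a block. The code was tested on simulated data.

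Probe sets were named through the platform's annotation (22436 with 1 gene, 95 with several, 34850 with none) and through locus descriptions in the study's tables (1241). The genes named are the 15 largest rises and up to 10 falls among called probe sets that have a symbol or described function and pairs that do not overlap (1 probe set per gene, the brightest that names it alone), then called members of gene lists and called genes of the study. Members and lists were chosen with earlier results of these data known. From the lists, 9 genes whose matching synonym belongs to another kind of gene were left out after values were seen, none of them called, and some symbols are shared by different genes. Of the lists, 8 with under 5 tested genes and one of pectin-modifying enzymes were not summarised, and promoters were not analysed here. Alternatives were no block, a random block, no centring, quantile normalization, other filters, an offset, a variance trend, a term for replicate 1, replicates 2 and 3 alone, and each pair left out.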

Additional observations from a re-analysis of the deposited data

Results flagged for a closer look

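For 18 of the 47 named genes all 3 pairs had one sign at 0.5 h and the other sign at 6 h. None of these 18 had a called difference at 0.5 h (lowest adjusted p = 0.0792), and the genes were chosen for a called growth, so the change of the difference between the times was tested but the turn of its sign was not. The growth was 6.29 for Os06g44320, 5.17 for IAA20, 3.97 for Os09g24840, 3.65 for Os8N3 (SWEET11), 3.24 for Os04g51460, 2.79 for Os11g10460, 1.73 for HOX2, 1.54 for CIPK3, 1.51 for ARF10, 1.44 for ACO1, 1.34 for Os04g57310, 1.21 for CSLC1, 1.01 for CYP734A6 and 0.76 for IAA15. The turn ran the other way for PIP2;5 at -1.93, Os10g39840 at -1.32, ABCG50 at -0.88 and SMR1 at -0.82. With arrays left uncentred 10 of the 18 still turned, while IAA20, CIPK3, ARF10, ACO1, Os04g57310, CSLC1, CYP734A6 and IAA15 had 0.5 h pairs of both signs. Over all probe sets tested, 995 turned from 3 pairs below 0 to 3 pairs above and 420 the other way, and most of these were not called.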

How the results depend on the processing

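The count of 297 called probe sets stayed within 1.5 times with quantile normalization (288) and with an offset of 16 (391). It fell to 186 without the replicate block, to 157 without it over 15 arrays, to 103 without centring and to 150 with a term for replicate 1 beside the block. It rose to 651 with a random block, to 755 with a variance trend and to 662 on the brightest 14314 probe sets. With no filter it was 0 (lowest adjusted p = 0.0504, and 4178 probe sets with an unadjusted p under 0.05), and within replicates 2 and 3 it was also 0. With 1 pair left out it lay between 34, without 0.5 h replicate 3, and 126, without 6 h replicate 3. With no filter 57258 probe sets are tested, and leaving out a pair leaves 3 residual degrees of freedom. The cause of the other shifts was not tested. No named gene and none of the 297 probe sets changed direction under any alternative that tested it (195 were among the brightest 14314). As said above, only no centring, quantile normalization and the offset could have shown such a change. Of the 47 named genes, 19 kept their call under all alternatives other than no filter, replicates 2 and 3 alone and the left-out pairs. These values rest on 3 pairs per time, on array signals without a detection call, and on weak signals for Os06g44320, IAA20, HAK17 and ABCG50. At least 1 flank group was also near or below the array median for genes that include Os09g24840, Os09g30506, IAA14 and HOX24.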

Other observations

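Some described genes outside the lists, picked after their values were seen, had a called growth. The arginine decarboxylase genes ADC1 and Os08g33620, whose enzyme starts polyamine synthesis, rose in the lower flank by 2.19 and 2.18. Their changes in the upper flank were -0.03 and -0.09, and their growths were 2.23 and 2.27. The nitrate reductase gene Os02g53130 fell in both flanks, by 0.91 in the lower and by 3.33 in the upper, a growth of 2.42. The beta-carotene hydroxylase gene Os10g38940, of carotenoid synthesis, grew by 2.18 with a lower-flank rise of 2.88. Os10g40480 and Os10g40430, described as cortical cell-delineating proteins of the lipid-transfer family, grew by 2.98 and 2.07, and a second, brighter probe set of Os10g40480 by 1.80.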
